A study of Mus musculus with 18 samples.

Results

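Distant melanomas of mice that had received injections of unmarked cells beside the opposite tumour were compared with distant melanomas of untreated mice across all genes. The comparison holds 6 of the 18 libraries of the series, 3 of left tumours from mice given pMC and 3 of left tumours from controls, chosen by their titles, and 14849 of 37620 gene IDs had enough counts to be tested. All groups used here come from C57BL/6 mice in which MO4 cells (B16F10 melanoma made to express ovalbumin) had been placed under the skin of both hindlimbs on day 0 (100000 cells a side). In the pMC group, cells derived from induced pluripotent stem cells, which the labels call iPSC-pMCs and mark with nothing further, were injected (1000000 each time) beside the right tumour on days 5, 6 and 7. The left tumour of such a mouse received no cells, and tumour RNA was taken on day 11. Control mice carried the same pair of tumours and were given no cells. Right tumours of both groups, and left tumours of mice given cells marked IFN-alpha (IFN-alpha-pMC) on the same days, serve for side by side values. Whether a group's libraries are from different mice, and which left and right libraries share a mouse, is not in the labels, so the p-values measure only the spread between these samples.

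A tumour at a site away from an injection can be reached by circulating cytokines and by lymphocytes primed elsewhere. Where activated T cells and natural killer cells enter a melanoma, transcripts of granzymes, perforin and T cell receptor chains appear in bulk RNA. Interferons act through STAT transcription factors on a shared set of antiviral genes and on the genes of antigen presentation by major histocompatibility complex (MHC) molecules. In bulk RNA, more or fewer cells of a type and more or less RNA per cell cannot be told apart.

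The deposited values are raw counts, and levels are given as CPM, a gene's counts per 1000000 gene counts of its library. For single genes that total was the counts of the tested genes after trimmed-mean scaling. For summed lists and for the limit of 0 counts it was the unscaled total of all genes. The left pMC libraries held gene counts of 22.86, 15.71 and 22.92, against 17.04, 14.35 and 17.04 in left controls, in units of 1000000. A gene with 0 counts in a library could still have stood at up to 0.131 to 0.209 CPM, the level of 3 counts, which covers counting error only. The samples were melanoma by their markers: Pmel, a protein of the pigment granule, was at 7616, 8684 and 9528 CPM in left pMC tumours, against 7881, 7940 and 7691 CPM in left controls. Pou5f1 and Sox2, factors of pluripotent cells, had 0 counts in all 6 libraries. Spearman correlations over genes were 0.9928 to 0.9946 among left pMC libraries, 0.9901 to 0.9956 among left controls and 0.9882 to 0.9962 between the groups, so a pair of libraries from different groups could be as alike as a pair from the same group.

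No gene was called different between left pMC and left control tumours. With edgeR's quasi-likelihood test fitted to all 18 libraries, 0 genes were higher and 0 lower at an adjusted p under 0.05 (0% of 14849 in each direction), and the smallest adjusted p was 1 after rounding. Without adjustment, 69 genes were higher (0.465%) and 50 lower (0.337%) at p under 0.05, together 0.801% of the genes. The 0.801% is below the 5% that the threshold allows when no gene differs, so this fit was cautious for the left pair. Its 0 calls therefore do not show that the groups are alike. The median log2 fold change of all genes was -0.00431. For 11001 genes (74.1%) the 95% interval of the log2 fold change lay between -1 and 1, so a change of more than 2 times in either direction falls outside the interval for these genes and inside it for the rest. For comparison, the same fit and the same control libraries gave 601 genes higher (4.05%) and 386 lower (2.6%), together 6.65%, in left tumours of IFN-alpha-pMC mice. Without left IFN-alpha-pMC library 1 those counts were 298 and 96 of 15106 genes tested. Without right IFN-alpha-pMC library 3 they were 1078 and 1703 of 15010, and without right control library 3 they were 2035 and 2067 of 15125. All log2 fold changes below are pMC minus control with their standard errors, from this fit unless another is named, and an interval is the 95% interval of that fold change. Every named gene has an adjusted p of 1 after rounding in this comparison, also where its interval leaves out 0.

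**Figure D1:**
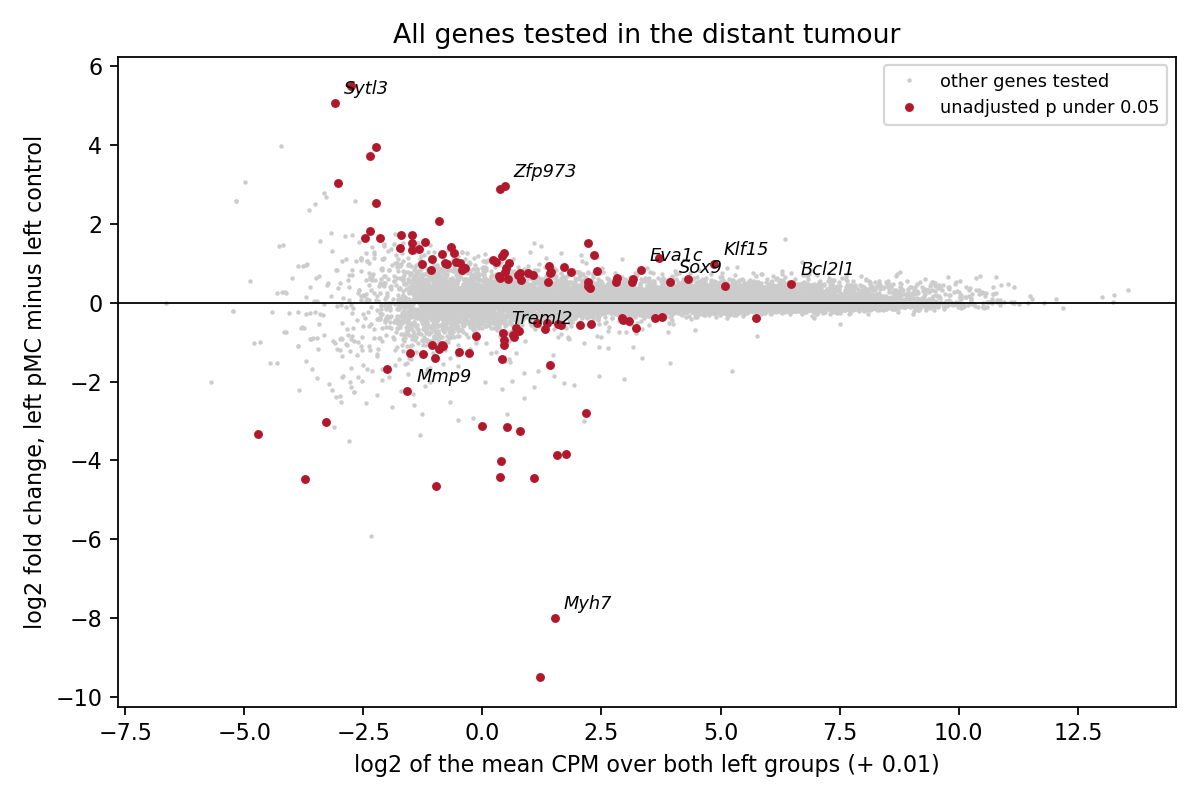
Each point is 1 of the 14849 genes tested; the horizontal axis is the log2 of its mean CPM over the 6 left libraries and the vertical axis its log2 fold change, left pMC minus left control. Genes with an unadjusted p under 0.05 (69 higher, 50 lower) are drawn larger in red; none passed after adjustment, and the widest fold changes belong to genes of low level.

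The fit shares 1 estimate of the spread over all 18 libraries. Its biological coefficient of variation was 23.7%, against 10.4% when the 6 left libraries were fitted alone. That narrower fit called 1 gene of 13784 higher (0.00725%) and 0 lower, with 1165 higher and 378 lower at an unadjusted p under 0.05. The called gene was Bnip3 (ENSMUSG00000078566), a mitochondrial protein of mitophagy whose gene is a known target of hypoxia inducible factor. Bnip3 was at 159, 164 and 157 CPM in left pMC tumours, against 101, 98.9 and 96.7 CPM in left controls. All 3 pMC libraries lay above all 3 controls, with little spread in either group. The log2 fold change was 0.68 ± 0.08 with an adjusted p = 0.0105 in edgeR's quasi-likelihood fit of the 6 libraries, and 0.69 ± 0.48 (interval -0.33 to 1.71) in the fit of all 18. Without pMC library 2, pMC library 3 or control library 3 the call of Bnip3 was lost, and correcting each library for length and GC content left 0 calls.

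Bnip3 varied far more in the other groups than in the left pair. It was at 295, 327 and 252 CPM in right pMC tumours, against 89.7, 63.2 and 259 CPM in right controls (log2 fold change 1.09 ± 0.48). In left IFN-alpha-pMC tumours it was at 698, 181 and 251 CPM, against the left controls given above (1.93 ± 0.50, adjusted p = 0.0384 in edgeR's quasi-likelihood test). Among the 28 tested genes of the hypoxia and glycolysis list, 22 had a positive and 6 a negative log2 fold change on the left, with a median of 0.14. In 4 members all pMC libraries exceeded all controls, and in 0 the reverse held, against 9.7% and 5.08% of all genes tested. Vegfa, the vascular growth factor, was at 45.6, 41.3 and 41.9 CPM in left pMC tumours, against 47.1, 43.0 and 43.7 CPM in left controls, so its groups overlapped.

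Eva1c, Klf15 and Cebpb were among the 12 genes in the higher direction with the smallest unadjusted p in the fit of all libraries. Eva1c (ENSMUSG00000039903), a membrane protein whose relative in the worm Caenorhabditis elegans binds the axon guidance factor Slit, was at 9.32, 14.7 and 14.4 CPM in left pMC tumours, against 8.52, 6.58 and 6.47 CPM in left controls (0.83 ± 0.19, interval 0.42 to 1.24). Klf15 (ENSMUSG00000030087), a glucocorticoid-induced factor of amino acid and lipid metabolism, was at 25.9, 51.6 and 38.3 CPM in left pMC tumours, against 20.4, 18.3 and 20.4 CPM in left controls (0.97 ± 0.23, interval 0.48 to 1.45). Neither gene's groups overlapped, and pMC library 1 lay nearest to the controls for both. The same held for Cebpb, a factor of myeloid differentiation and acute-phase genes, at 2.79, 4.52 and 5.54 CPM in left pMC tumours, against 2.65, 1.81 and 2.40 CPM in left controls (0.90 ± 0.30, interval 0.26 to 1.54). Cebpa, its relative in granulocytes and fat cells, is not among those 12 and was named from the adipocyte list; it overlapped, with 6.06, 9.48 and 10.2 CPM in left pMC tumours, against 5.14, 4.90 and 6.52 CPM in left controls (0.63 ± 0.24, interval 0.13 to 1.14).

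Eva1c and Klf15 stood in the same order on the injected side. Eva1c averaged 12.3 ± 0.656 CPM in right pMC tumours and 6.92 ± 0.818 CPM in right controls (SD, n = 3 each), with a log2 fold change of 0.83 ± 0.19. Klf15 was at 27.1, 44.4 and 30.5 CPM in right pMC tumours, against 19.6, 21.1 and 19.3 CPM in right controls (0.77 ± 0.23). In both genes the groups did not overlap on either side. Right and left groups share no library but may share mice, since each mouse carried a tumour on both sides, so the right values are not independent of the left ones. On the right, 1.68% of all genes had all pMC libraries above all controls and 1.64% the reverse. Cebpb did not follow, with a log2 fold change of -0.15 on the right. In IFN-alpha-pMC tumours of the left side, set against the same left controls, the log2 fold changes were 0.56 for Eva1c and 0.72 for Klf15 (adjusted p = 0.0686 and 0.0597 in edgeR's quasi-likelihood test).

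The promoters of Bnip3, the 1 gene called in the fit of the 6 left libraries, and of Klf15, which separated the groups on both sides, are shown so that a reader can see the sequence at their starts. Each run holds 250 bases before and 50 bases after the RefSeq start on build GRCm38.p6, 5′ to 3′ on the gene's strand, chr7:138909457-138909756 (minus strand) for Bnip3 and chr6:90462326-90462625 (plus strand) for Klf15. Capitals mark CACGTG, the palindromic E-box core, searched on both strands (it reads the same on each) and chosen with the levels known.
Bnip3: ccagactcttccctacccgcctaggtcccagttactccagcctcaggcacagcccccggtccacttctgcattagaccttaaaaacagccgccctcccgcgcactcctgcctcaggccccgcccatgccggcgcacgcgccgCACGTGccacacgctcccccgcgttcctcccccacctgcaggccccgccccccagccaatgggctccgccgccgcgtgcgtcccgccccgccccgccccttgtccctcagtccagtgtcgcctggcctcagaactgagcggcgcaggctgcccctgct
Klf15: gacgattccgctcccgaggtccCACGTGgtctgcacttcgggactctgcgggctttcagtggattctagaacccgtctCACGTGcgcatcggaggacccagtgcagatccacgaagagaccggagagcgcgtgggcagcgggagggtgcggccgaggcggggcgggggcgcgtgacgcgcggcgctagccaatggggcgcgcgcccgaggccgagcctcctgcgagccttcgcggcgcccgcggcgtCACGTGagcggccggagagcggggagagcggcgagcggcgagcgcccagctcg
The Bnip3 window holds 1 match and the Klf15 window 3. Of 32851 promoter windows of the same length, 7.15% hold at least 1 match and 0.0883% at least 3. The matches describe the letters of these windows and no binding was measured.

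**Figure D2:**
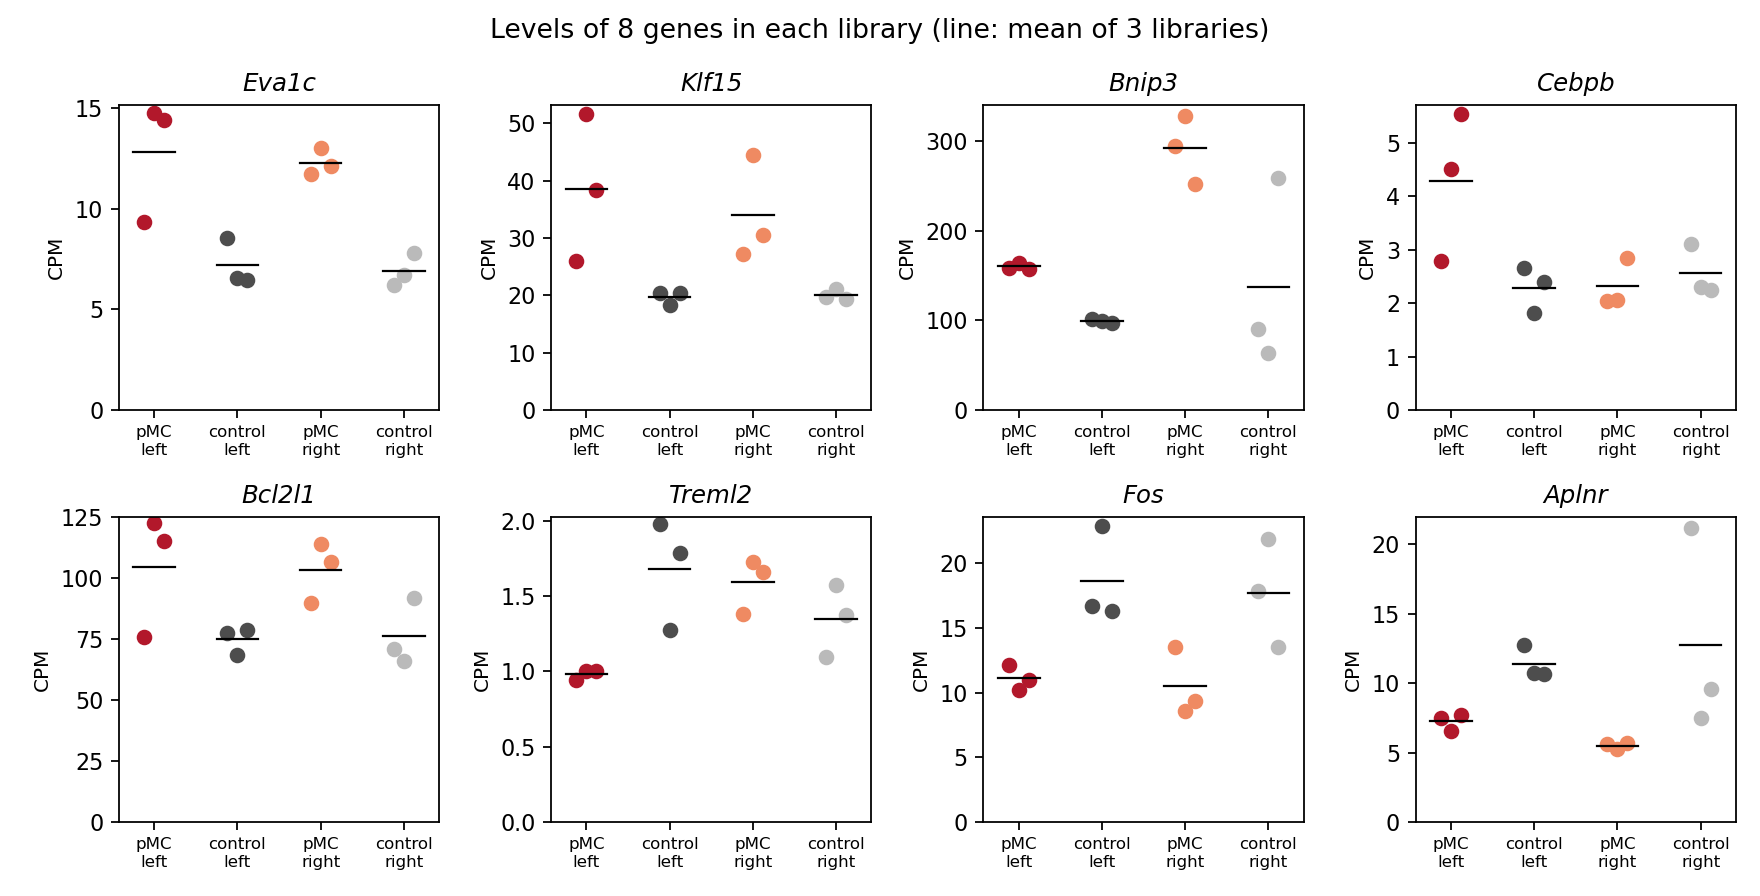
Levels in CPM (vertical axes, starting at 0) of 8 genes in every library of left pMC, left control, right pMC and right control tumours, with a line at each group's mean. Bnip3, Eva1c and Klf15 do not overlap between the left groups, and Treml2, Fos and Aplnr lie lower in all 3 left pMC libraries than in all 3 left controls.

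Several other genes at the head of the higher direction were near the limit of detection or uncertain. Sytl3, a synaptotagmin-like protein of granule traffic, had 13 counts over the left pMC libraries against 0 over the left controls, which puts pMC at least 3.41-fold higher when the controls are set at 3 counts over the group. Sytl3 did have counts in right controls (0.0914, 0.305 and 0.125 CPM). Zfp973 and Gm14419 carried log2 fold changes of 2.95 ± 1.03 and 2.88 ± 1.01 on the left. Zfp973 ranged from 0.0457 to 5.50 CPM within the right controls, and pairs that align to more than 1 place were not counted, so both are uncertain. Mefv, the pyrin inflammasome sensor of myeloid cells, was at 0.601, 0.377 and 0.697 CPM in left pMC tumours, against 0.282, 0.134 and 0.223 CPM in left controls (1.37 ± 0.47, interval 0.36 to 2.37). Dok3, an adaptor that restrains signalling in myeloid and B cells, was at 2.53, 4.71 and 3.01 CPM in left pMC tumours, against 2.09, 1.48 and 2.34 CPM in left controls (0.78 ± 0.28, interval 0.19 to 1.36). The remaining genes of this group of 12 were 1700001G11Rik, Noxred1, Clec11a and Gm11613, with log2 fold changes of 1.54, 1.34, 1.70 and 0.99.

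In the lower direction the leading genes were of low level. Treml2, a receptor of T and myeloid cells, was at 0.945, 1.00 and 1.00 CPM in left pMC tumours, against 1.98, 1.28 and 1.78 CPM in left controls (-0.77 ± 0.23, interval -1.27 to -0.28). Mmp9, a gelatinase carried by neutrophils and macrophages, was at 0.129, 0.0628 and 0.131 CPM in left pMC tumours, against 1.13, 0.336 and 0.167 CPM in left controls (-2.23 ± 0.76, interval -3.84 to -0.63). For Mmp9 control library 1 was the highest, and it was also the left library with the most muscle transcripts. Zfp112, Il20rb, Atg9b, Kif19a, Gm9703, Txlng and St8sia5 also lay lower in all pMC libraries, with log2 fold changes of -0.86, -1.07, -1.06, -0.73, -1.44, -0.47 and -1.17. Txlng, at 7.56, 6.28 and 7.28 CPM in left pMC tumours against 8.47, 10.8 and 10.0 CPM in left controls, was the best expressed of them. Myh7, Myoz2 and Ttc39a completed the group of 12, and in each of these the groups overlapped.

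Genes of skeletal muscle separated 1 control library from the other 5. The 37 genes of the skeletal muscle list, 35 of them tested, summed to 78.4, 242 and 187 CPM in left pMC tumours, against 667, 82.7 and 122 CPM in left controls. Control library 1 was high and the remaining left libraries overlapped. Myh7, the slow myosin heavy chain, had 1 count over the left pMC libraries against 304 over the left controls, all of them in control library 1 (ratio 0.00259, exact 95% binomial interval 6.54e-05 to 0.0145). Tnnt1, slow troponin T, was at 0.430, 0.314 and 0.218 CPM in left pMC tumours, against 8.92, 0.134 and 0.223 CPM in left controls. The list had 8 members lower at an unadjusted p under 0.05 (0.337% of all genes were) and a median log2 fold change of -0.88, which was 0.99 in the opposite direction without control library 1. DESeq2 called 0 genes higher (0%) and 1 lower of 23464 (0.00426%): Myl3, a slow muscle myosin light chain named here after its values were seen. Myl3 had 0 counts in all left pMC libraries, against 246 in control library 1 and 0 in the other controls (adjusted p = 1.57e-06 in DESeq2). It was at least 104-fold lower by summed counts, and DESeq2 called 0 genes without control library 1.

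**Figure D3:**
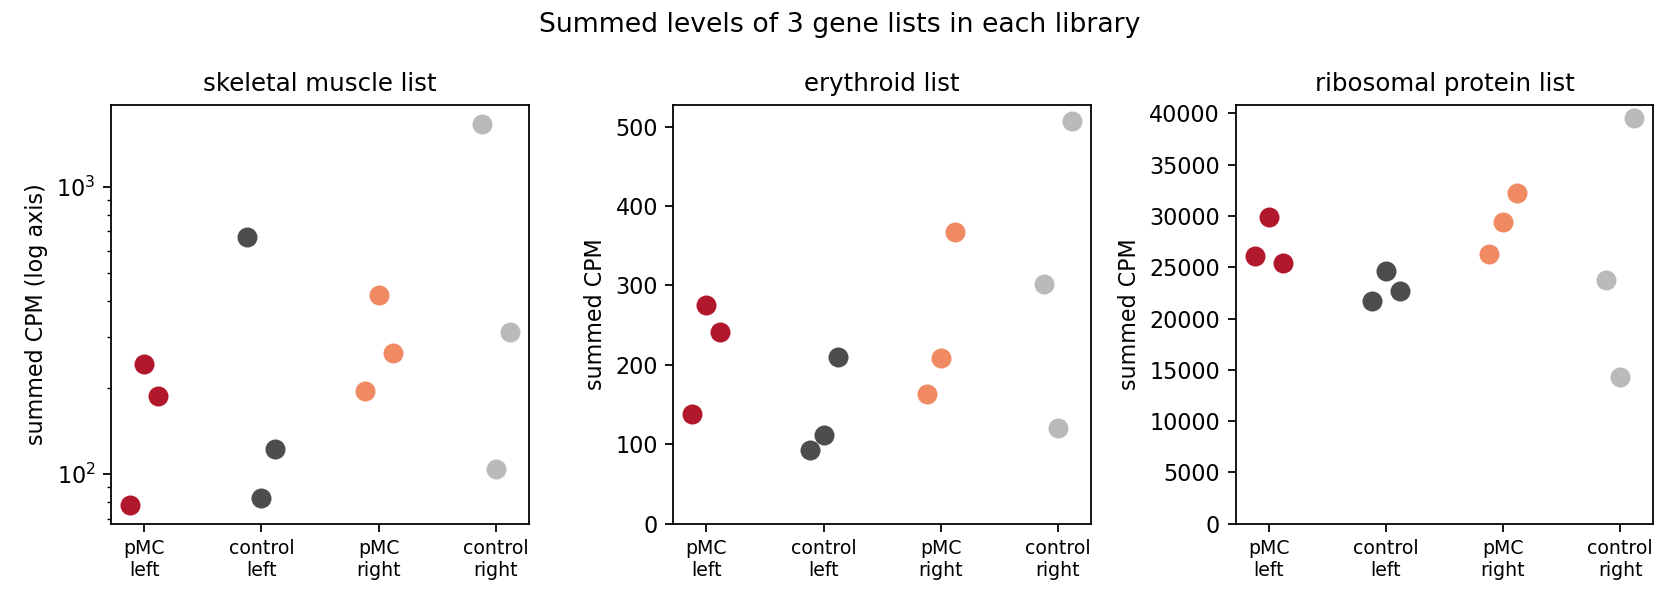
Summed CPM of the skeletal muscle list (log axis), the erythroid list and the ribosomal protein list in every library of left pMC, left control, right pMC and right control tumours. Left control 1 stands at 667 CPM for muscle against 78.4 to 242 CPM in left pMC, and the ribosomal sums are 25400 to 29900 CPM in left pMC against 21700 to 24600 CPM in left controls.

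Interferon response genes stood close to control in the distant tumour. None of 39 tested genes of the type I interferon response list passed the test. None was at an unadjusted p under 0.05, which only 0.801% of all genes were. Their median log2 fold change was 0.07, and 38 of the 39 had a 95% interval within -1 to 1, against 74.1% of all genes. The median was -0.06 without control library 1. In left IFN-alpha-pMC tumours, against the same controls, the median of these genes was 0.77. Irf7, an interferon-induced factor that drives more interferon, was at 52.7, 63.6 and 62.8 CPM in left pMC tumours, against 42.3, 55.0 and 55.4 CPM in left controls (0.23, 95% interval -0.15 to 0.60). Isg15, a ubiquitin-like interferon product, was at 58.3, 67.5 and 66.5 CPM in left pMC tumours, against 40.5, 66.7 and 50.9 CPM in left controls (0.28, interval -0.41 to 0.98). Both genes overlapped between groups, with control library 1 the lowest. In all 3 left pMC libraries Ifi27l2a, an interferon-induced gene, lay above the controls, at 6.70, 15.2 and 9.11 CPM in left pMC tumours, against 4.63, 4.56 and 5.13 CPM in left controls (1.11 ± 0.63, interval -0.22 to 2.44).

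The 25 tested genes of the interferon-gamma response gave 0 calls and a median log2 fold change of 0.08, or -0.09 without control library 1. In left IFN-alpha-pMC tumours their median was 1.19. Cxcl10, a chemokine for activated T cells, was at 129, 108 and 105 CPM in left pMC tumours, against 123, 140 and 113 CPM in left controls (-0.14, interval -0.63 to 0.36). Cd274, the checkpoint ligand PD-L1, was at 66.2, 65.6 and 61.9 CPM in left pMC tumours, against 41.8, 80.5 and 71.2 CPM in left controls, a log2 fold change of 0.00 with an interval of -0.56 to 0.56. The pMC libraries of Cd274 lay inside the range of the controls. Ido1, the tryptophan-degrading enzyme induced by interferon-gamma, had 6 counts over left pMC libraries (2, 0 and 4) against 0 over left controls. Its groups overlapped, and its interval held 0 (3.96 ± 1.88, interval -0.06 to 7.99). With the controls set at 3 counts over the group and the pMC counts taken as exact, pMC was 1.58-fold higher.

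Genes of antigen presentation lay mostly on the higher side without passing. Of 18 tested genes of MHC class I presentation, 17 had a positive log2 fold change (median 0.22, or 0.08 without control library 1), and in 5 all pMC libraries exceeded all controls. Over all genes 9.7% had that pattern. H2-T23, a non-classical class I heavy chain read by natural killer cell receptors, was at 60.2, 78.3 and 81.9 CPM in left pMC tumours, against 44.0, 59.9 and 55.9 CPM in left controls (0.46 ± 0.27, interval -0.12 to 1.04). H2-M3, which presents formylated peptides, was at 10.2, 12.5 and 12.4 CPM in left pMC tumours, against 5.81, 8.32 and 7.36 CPM in left controls (0.71 ± 0.41, interval -0.16 to 1.57). Neither gene's groups overlapped, although H2-T23 in pMC library 1 lay just above control library 2. B2m, the light chain shared by class I molecules, overlapped at 4105, 4238 and 4689 CPM in left pMC tumours, against 3331, 4409 and 4488 CPM in left controls, and its direction turned with a length and GC correction. All 12 tested genes of MHC class II presentation were positive (median 0.34, or 0.13 without control library 1), yet the groups separated in 1 only. Cd74, the class II invariant chain, was at 331, 503 and 458 CPM in left pMC tumours, against 257, 330 and 397 CPM in left controls (0.39 ± 0.27, interval -0.18 to 0.97).

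T cell and killer cell genes had the largest positive medians among the immune lists, and none passed. Of 27 tested T cell markers, 25 were positive, with a median log2 fold change of 0.36, and in 5 all left pMC libraries exceeded all left controls (9.7% of all genes did). Zap70, the kinase below the T cell receptor, was at 1.85, 1.32 and 2.22 CPM in left pMC tumours, against 0.847, 1.01 and 1.12 CPM in left controls (0.87 ± 0.35, interval 0.12 to 1.61). Cd3d, a chain of the receptor complex, was at 2.88, 3.70 and 3.14 CPM in left pMC tumours, against 0.960, 1.81 and 2.45 CPM in left controls (0.89 ± 0.59, interval -0.36 to 2.14). Both separated the groups, but Cd3e, another chain of the same complex, did not, at 1.93, 3.70 and 1.70 CPM in left pMC tumours against 1.47, 2.55 and 2.68 CPM in left controls. Cd8a, the coreceptor of cytotoxic T cells, was at 4.60, 6.15 and 4.75 CPM in left pMC tumours, against 2.37, 4.50 and 4.52 CPM in left controls (0.44, interval -0.37 to 1.25). Cd4 and Foxp3 overlapped (log2 fold changes 0.27 and 0.20), and Foxp3 changed sign when single libraries were left out. The T cell median was between 0.10 and 0.56 over all alternatives.

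Of 25 tested cytotoxic lymphocyte and natural killer cell genes, 23 were positive, with a median log2 fold change of 0.48, and in 8 the left pMC libraries all exceeded the controls, against 9.7% of all genes. The right pMC tumours gave a median of 0.40 for these genes against right controls, and left IFN-alpha-pMC tumours one of 1.98 against the left controls. Gzmb, granzyme B, was at 3.61, 4.14 and 4.14 CPM in left pMC tumours, against 2.26, 2.21 and 2.90 CPM in left controls (0.68, interval -0.22 to 1.59). Its groups did not overlap, and in the fit of the 6 left libraries alone its adjusted p was 0.222 by edgeR's quasi-likelihood test. In left IFN-alpha-pMC tumours Gzmb had a log2 fold change of 3.26 (adjusted p = 0.00171 in edgeR's quasi-likelihood test). Gzmk, a granzyme of memory-like T cells, was at 0.687, 1.82 and 0.654 CPM in left pMC tumours, against 0.282, 0.470 and 0.502 CPM in left controls (1.28 ± 0.70, interval -0.20 to 2.76). Ccl5, a chemokine released by activated T cells, was at 20.9, 26.7 and 21.4 CPM in left pMC tumours, against 16.6, 18.5 and 18.9 CPM in left controls (0.35 ± 0.19, interval -0.04 to 0.75). Ifng itself was at 0.558, 0.628 and 0.567 CPM in left pMC tumours, against 0.565, 0.805 and 0.558 CPM in left controls, with overlap (-0.13, interval -1.10 to 0.83). Only 4 of these 25 genes had an interval within -1 to 1, against 74.1% of all genes, so for the rest a change of more than 2 times falls inside the interval. The same fit called 17 of the 25 higher in left IFN-alpha-pMC tumours (4.05% of all genes were).

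Of 17 tested checkpoint and regulatory genes, 12 were positive (median 0.20), and in 1 all left pMC libraries exceeded all left controls, against 9.7% of all genes. Tnfrsf9, the costimulatory receptor 4-1BB, was at 7.09, 8.72 and 10.2 CPM in left pMC tumours, against 4.40, 6.04 and 5.02 CPM in left controls (0.75 ± 0.44, interval -0.17 to 1.67). Pdcd1, the receptor PD-1, was at 3.44, 5.08 and 4.66 CPM in left pMC tumours, against 1.75, 3.76 and 4.29 CPM in left controls and overlapped. For B and plasma cells the median of 9 tested genes was -0.13.

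Myeloid genes were positive in part. Of 30 tested monocyte and macrophage genes, 22 were positive (median 0.19), and in 5 all left pMC libraries exceeded all left controls, against 9.7% of all genes. Lyz2, lysozyme of macrophages and neutrophils, was at 375, 747 and 540 CPM in left pMC tumours, against 272, 359 and 334 CPM in left controls (0.78 ± 0.52, interval -0.32 to 1.89), and library 1 of the pMC group was again the lowest of its group. Adgre1, the macrophage surface protein F4/80, was at 36.4, 36.9 and 33.2 CPM in left pMC tumours, against 32.5, 33.2 and 35.6 CPM in left controls, so its groups overlapped (0.07, interval -0.33 to 0.47). Ccr2, the receptor that draws inflammatory monocytes, overlapped as well, at 12.5, 12.4 and 11.2 CPM in left pMC tumours against 9.82, 12.9 and 15.4 CPM in left controls. Lyve1, found on lymphatic vessels and some tissue macrophages, was at 3.57, 2.20 and 4.53 CPM in left pMC tumours, against 1.47, 1.28 and 1.95 CPM in left controls (1.13 ± 0.56, interval -0.06 to 2.32). Arg1, the arginine-degrading enzyme of suppressive myeloid cells, was at 0.558, 1.07 and 0.915 CPM in left pMC tumours, against 0.903, 0.268 and 0.223 CPM in left controls and could not be told from no change (0.81, interval -1.72 to 3.34). Among 22 dendritic cell genes the median was 0.24, and Xcr1, the receptor of cross-presenting dendritic cells, overlapped (-0.20, interval -0.93 to 0.53). Neutrophil genes were scarce, with Ly6g at 0 counts in all 6 libraries.

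**Figure D4:**
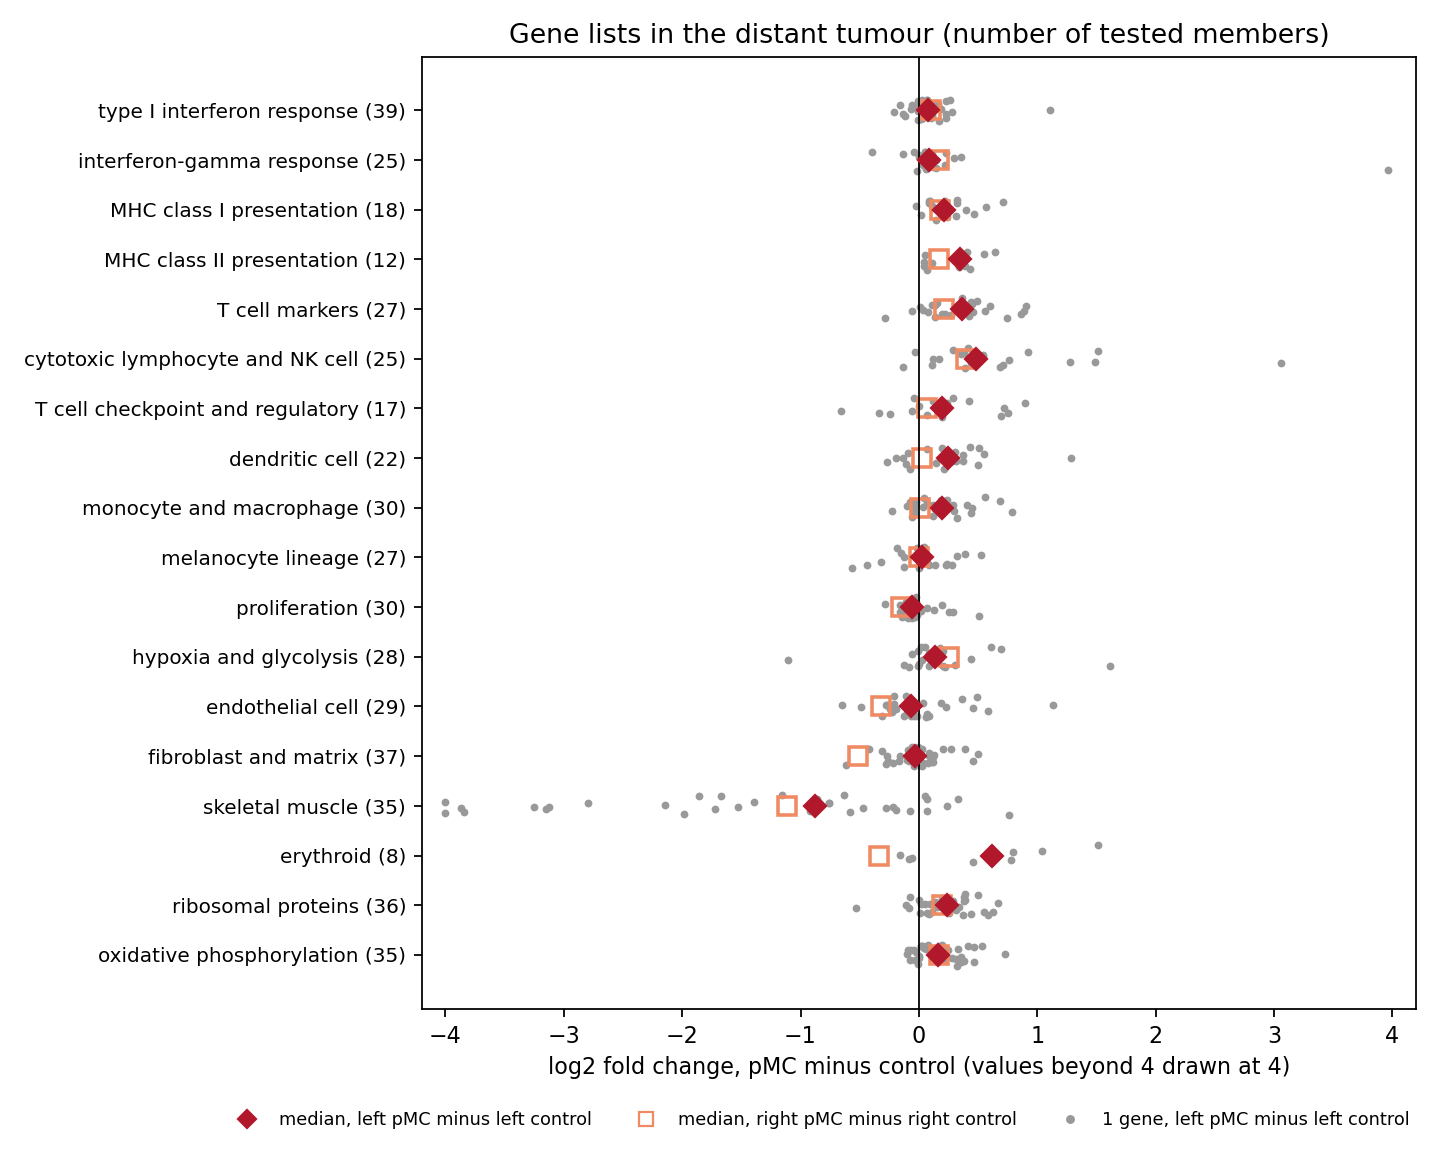
Log2 fold changes (horizontal axis) of tested members of 18 gene lists (rows, with the number tested): grey points are single genes in left pMC against left control, diamonds are their medians and open squares the medians of right pMC against right control. The T cell and cytotoxic lists have left medians of 0.36 and 0.48, the type I interferon list 0.07 and the skeletal muscle list -0.88.

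Genes of the melanoma cells themselves mostly had small log2 fold changes. The 27 tested melanocyte lineage genes ran from -0.56 to 0.52 with a median of 0.03. An interval within -1 to 1 was found for 23 of them, against 74.1% of all genes. In 4 all left pMC libraries exceeded all left controls and in 2 the reverse held, against 9.7% and 5.08% of all genes. Tyr, tyrosinase, the first enzyme of melanin synthesis, was at 2498, 2572 and 2702 CPM in left pMC tumours, against 1934, 2020 and 1981 CPM in left controls (0.39 ± 0.29, interval -0.23 to 1.00). Dct, another melanin enzyme, was at 12150, 13067 and 14772 CPM in left pMC tumours, against 10305, 11033 and 10695 CPM in left controls. Both genes separated the groups with small folds, while Tyrp1 and Sox10 overlapped (log2 fold changes 0.03 and 0.02). Sox9, a factor of neural crest and melanocyte precursors, was at 14.2, 19.5 and 20.2 CPM in left pMC tumours, against 12.81, 11.54 and 13.05 CPM in left controls (0.52 ± 0.20, interval 0.11 to 0.94). Of 30 proliferation genes, 23 were negative with a median of -0.06, and 27 had an interval within -1 to 1 (74.1% of all genes did). In 4 of the 30 all pMC libraries lay above all controls and in 0 below, against 9.7% and 5.08% of all genes. Ccne2, a cyclin of entry into DNA synthesis, was at 45.75, 60.31 and 52.96 CPM in left pMC tumours, against 38.16, 37.32 and 36.58 CPM in left controls (0.50 ± 0.44, interval -0.43 to 1.44). Mki67, the nuclear protein of dividing cells, was at 270, 236 and 229 CPM in left pMC tumours, against 324, 264 and 310 CPM in left controls and overlapped.

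Vessel and matrix genes varied in both directions. Vcam1, an adhesion molecule for leukocytes, was at 21.9, 27.5 and 22.3 CPM in left pMC tumours, against 15.4, 14.0 and 18.2 CPM in left controls (0.59 ± 0.27, interval 0.03 to 1.15). Aplnr, the apelin receptor of sprouting vessels, was at 7.52, 6.53 and 7.67 CPM in left pMC tumours, against 12.8, 10.7 and 10.6 CPM in left controls (-0.65 ± 0.31, interval -1.30 to -0.00). Neither gene overlapped between groups, and over the 29 tested endothelial genes 2 lay wholly above and 4 wholly below, against 9.7% and 5.08% of all genes, with a median of -0.06. Pecam1, the general endothelial marker, was at 22.3, 23.2 and 28.5 CPM in left pMC tumours, against 29.4, 27.6 and 27.4 CPM in left controls. Over 37 fibroblast and matrix genes no member separated the groups, and the median was -0.03 on the left and -0.51 for right pMC against right control. Col1a1, the main fibrillar collagen, was at 44.2, 43.3 and 88.7 CPM in left pMC tumours, against 97.5, 36.4 and 62.4 CPM in left controls.

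Stress, clock and blood genes gave no calls either. Fos, an immediate early factor, was at 12.1, 10.2 and 11.0 CPM in left pMC tumours, against 16.7, 22.9 and 16.3 CPM in left controls (-0.74 ± 0.42, interval -1.63 to 0.15). All pMC libraries of Fos lay below all controls. Per1, a clock gene that glucocorticoids also induce, was at 119, 215 and 130 CPM in left pMC tumours, against 40.1, 71.3 and 152 CPM in left controls and overlapped through control library 3 (0.81 ± 0.40, interval -0.04 to 1.67). Bcl2l1, which encodes the survival protein BCL-XL, was at 75.9, 122 and 115 CPM in left pMC tumours, against 77.3, 68.2 and 78.6 CPM in left controls (0.48 ± 0.19, interval 0.07 to 0.89), with pMC library 1 among the controls. The erythroid list summed to 138, 275 and 241 CPM in left pMC tumours, against 93.3, 112 and 210 CPM in left controls. Hbb-bt, a beta globin, was at 3.05, 10.2 and 7.41 CPM in left pMC tumours, against 1.35, 1.61 and 4.18 CPM in left controls (1.51 ± 0.71, interval 0.02 to 3.01). Counts of globin copies may be split between near-identical genes. Of 36 lists with at least 5 tested members, 0 had a called member, and 30 had a median within -0.25 to 0.25.

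The pMC difference on the left was also set against that on the right in 1 test, which treats all libraries as separate although left and right may share mice. The deviations of same-numbered left and right libraries from their group means correlated at 0.103, 0.00595 and 0.134 in pMC tumours, against 0.597, 0.125 and -0.0237 in controls, across genes. No gene differed between sides in edgeR's quasi-likelihood test (0 with a higher and 0 with a lower left difference, 0%, smallest adjusted p 1 after rounding), and 64 (0.431%) and 38 (0.256%) did at an unadjusted p under 0.05. Right pMC against right control gave 0 and 0 calls too, with 187 genes higher (1.26%) and 172 lower (1.16%), together 2.42%, at an unadjusted p under 0.05. DESeq2 gave 0 calls for the difference between sides. Another fit left out 3 libraries, called here those that stand apart: right control 3 and, among IFN-alpha-pMC libraries, left 1 and right 3. Each had the lowest mean Spearman correlation with its own group, at 0.9454, 0.9678 and 0.9629. Right control 2, at 0.9584, was below 2 of these and was kept in that fit. Of 15018 genes tested there, right pMC against right control gave 2932 higher and 2135 lower. The left comparison still gave 0 and 0, and the difference between sides 1, Gm15920 (-1.61, adjusted p = 0.0142 in edgeR's quasi-likelihood test). That fit also had a smaller spread, with a biological coefficient of variation of 13.8%. Without right control 3 alone, right pMC against right control gave 1 gene higher, again Gm15920, and 0 lower, and the left comparison and the difference between sides gave 0. Without either of those IFN-alpha-pMC libraries alone, all 3 comparisons gave 0. Gm15920 was at 100.3, 90.7 and 99.3 CPM in left pMC tumours, against 97.4, 102 and 64.2 CPM in left controls, and at 108, 98.6 and 105 CPM in right pMC tumours, against 31.0, 30.6 and 166 CPM in right controls. Rftn1, a lipid raft protein of B cells, was at 5.11, 5.84 and 5.58 CPM in left pMC tumours, against 3.10, 3.62 and 4.74 CPM in left controls, and at 3.48, 3.07 and 3.48 CPM in right pMC tumours, against 4.39, 5.06 and 4.81 CPM in right controls. The groups of Rftn1 were thus apart in opposite directions on the left and the right, with a difference of 1.03 ± 0.29 log2 units that did not pass the test. Treml2 and Tnfsf18, a ligand that costimulates T cells, differed the other way by -1.01 ± 0.33 and -2.89 ± 0.91. Sytl3, Gm6368 and Cxcr5 were the other genes with the smallest p for this difference, all of low level.

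Groups that did not overlap were more frequent among short transcripts. All left pMC libraries lay above all left controls in 1440 genes (9.7%) and below in 755 (5.08%). When genes were split into 5 equal bins of length, in the bin with the shortest transcripts (median 1091 bases) these shares were 21% and 2.33%, and in the bin with the longest (median 6615 bases) they were 2.36% and 7.5%. The median log2 fold change was 0.14 in the shortest and -0.07 in the longest bin, and across 14395 genes, which are not independent, log2 fold change and length had a Spearman correlation of -0.32 on the left and -0.30 on the right. By library, the correlation of centred log2 CPM with length was 0.30, 0.03 and 0.09 in left pMC tumours, against 0.35, 0.28 and 0.39 in left controls. Library 1 of the pMC group thus lay among the controls on this measure, as it did for Bcl2l1, and the part of length in the gene differences was not tested.

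Ribosomal and respiratory chain proteins were counted in the same way. Of 36 ribosomal protein genes, 19 lay wholly above and 1 wholly below the left controls, against 9.7% and 5.08% of all genes and 21% and 2.33% of those in the bin with the shortest transcripts. They had a median log2 fold change of 0.24, or 0.10 after correcting for length and GC content. Rps3, a protein of the small ribosomal subunit, was at 1239, 2011 and 1508 CPM in left pMC tumours, against 961, 1093 and 1031 CPM in left controls (0.63 ± 0.51, interval -0.45 to 1.71). Of 35 genes of oxidative phosphorylation, 16 lay wholly above and 0 below, against the same shares, with a median of 0.16, or 0.04 after the correction. Ndufb8, a subunit of respiratory complex I, was at 358, 700 and 513 CPM in left pMC tumours, against 307, 311 and 330 CPM in left controls (0.73 ± 0.55, interval -0.43 to 1.88). None of these genes passed the test.

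**Figure D5:**
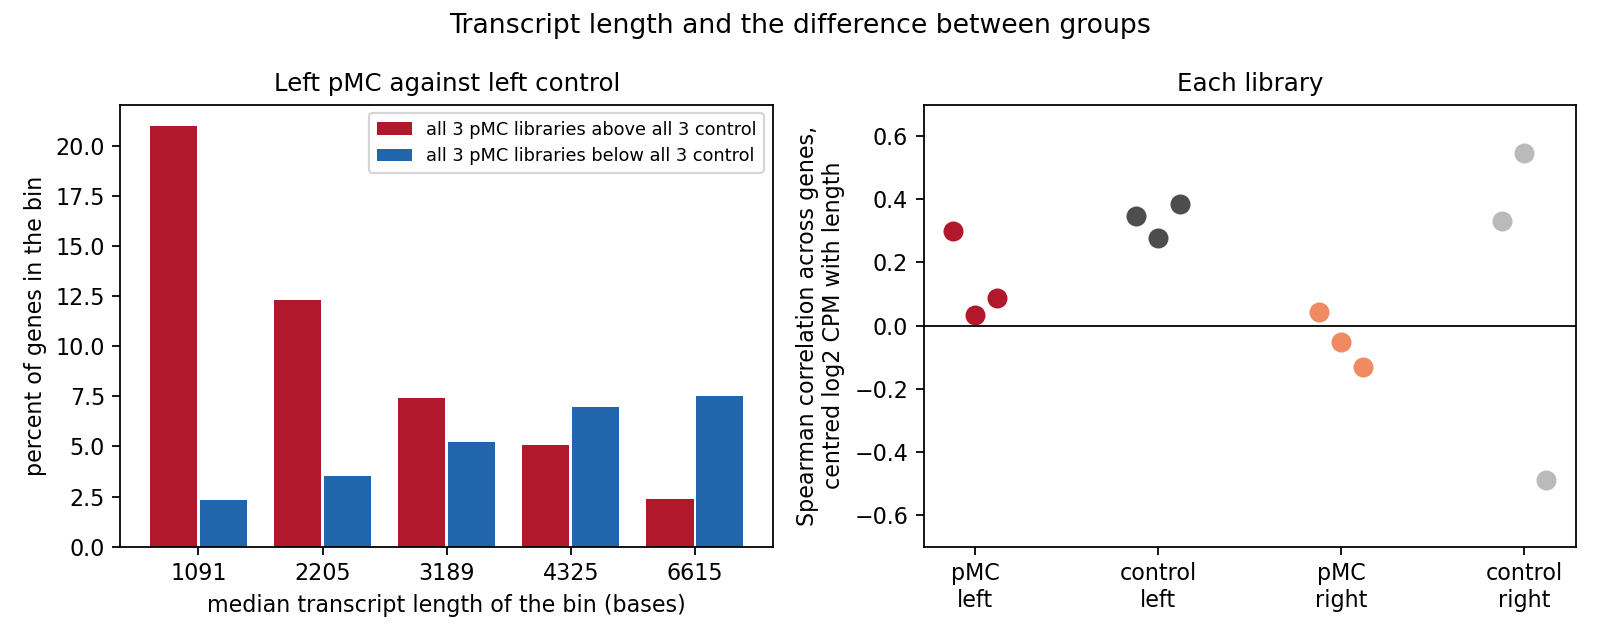
Left panel: percent of genes (vertical axis) in each of 5 bins of transcript length (horizontal axis, median length in bases) in which all 3 left pMC libraries lay above or below all 3 left controls. Right panel: Spearman correlation across genes between each library's centred log2 CPM and transcript length, by group. The share above runs down from 21% to 2.36% with length, and left pMC libraries 2 and 3 are at 0.03 and 0.09 against 0.28 to 0.39 in left controls.

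With the left libraries fitted alone, the calls depended on pMC library 1. Without it, 307 genes of 14006 tested were called higher and 21 lower by edgeR's quasi-likelihood test, against 1 and 0 of 13784 with all 6 libraries. Klf15, Eva1c, Cebpb, Lyz2, Bcl2l1, Sox9 and Tyr were among the genes then called higher, and Fos among those called lower. For each of these genes pMC library 1 was the pMC library nearest to the left controls, so leaving it out widens their differences. Its correlation with transcript length was 0.30, among the controls, against 0.03 and 0.09 in pMC libraries 2 and 3. This fit was not run with the length and GC correction. Leaving out any other library of the 6 gave between 0 and 3 calls, which were Bnip3, Gm14419, Zfp973 and ENSMUSG00000090378. With all 18 libraries in the fit, leaving out pMC library 1 gave 0 calls and a smallest adjusted p of 0.43.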

How the data were processed

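Groups were taken from the sample titles. Each deposited file lists whole-number counts of read pairs for 1 library, by Ensembl gene ID and without normalization. On mm9, the submitters' processing notes name HISAT2 2.1.0, HTSeq 0.10.0, Trimmomatic 0.36, CASAVA 1.8.2, DESeq2 1.20.0, bcl2fastq and FastQC. How the counter treated strand, and which annotation release it used, is not given in the sources used here. Antisense pairs may not have been told apart. The 5 summary rows of each file, 29.3 to 39.8% of its read pairs, were left out. Pairs aligned to several places were not counted. The counter's messages name 1 sequencing lane.

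Gene symbols came from GENCODE M21 (GRCm38) by Ensembl ID for 32897 of 37620 IDs. Counts were tested with edgeR 4.0.16 in R 4.3.3 (glmQLFit and glmQLFTest, two-sided), with trimmed-mean scaling, filterByExpr at its defaults, a mean for each of 6 groups and all 18 libraries (12 residual degrees of freedom). Benjamini-Hochberg adjustment ran over 14849 genes, with a threshold of 0.05. DESeq2 1.42.0 was the other tool. The scripts were tested on simulated data. Intervals of ratios are exact binomial at 95% (SciPy), and cover counting error only. No 2 libraries held identical values.

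The comparison and the 38 gene lists were chosen with earlier results of these data known. Named genes are the 12 per direction with the smallest unadjusted p, since none passed, 3 per list by the same measure, 31 fixed markers and 3 per direction for the difference between sides. Pmel, Dct, Tyrp1, Sox10, Pou5f1, Sox2, Ly6g, Myl3, Gm15920 and ENSMUSG00000090378 lie outside that rule and were chosen after their values were seen. Alternatives were other scalings, filters, tools, sample sets, a replicate block, a muscle score, a length and GC correction and each left library left out. The length and GC correction, the DESeq2 and 6-library fits with a library left out, and single removal of the 3 libraries that stand apart were added after seeing the data.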

Additional observations from a re-analysis of the deposited data

Results flagged for a closer look

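Read pairs that the counter set aside as ambiguous are kept in the summary rows and were outside the comparisons above. They were a slightly larger share of all pairs in left pMC tumours. The share was 2.568, 2.614 and 2.625% (mean 2.6%) in left pMC libraries, against 2.549, 2.553 and 2.395% in left controls. All pMC libraries lay above all controls, and the exact two-sided permutation test gave p = 0.1, the smallest value that 3 against 3 libraries allow (adjusted p = 0.25 over the 5 kinds of unassigned pairs, Benjamini-Hochberg). Over all 18 libraries the share ran from 2.278 to 2.929%. The share of pairs set aside for low alignment quality separated the groups the other way, at 0.8684, 0.8436 and 0.8475% in left pMC libraries, against 0.9342, 0.9472 and 1.039% in left controls (exact two-sided permutation p = 0.1, adjusted p = 0.25), and its part in the gene differences was not tested.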

How the results depend on the processing

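Of 4384 values of 159 named genes over 29 alternatives, 4262 kept their direction and side of the threshold, 53 kept direction and passed it, and 69 (in 17 genes) changed sign. No gene was called higher or lower in the left comparison with other scalings, other filters, the muscle score, the length and GC corrections, or without the 3 libraries that stand apart, together or singly. Calls appeared with DESeq2 (1 lower), with the compared groups alone (1 higher), and in the difference between sides without the 3 libraries (1 lower). Whether left pMC and left control libraries of the same number belong together is not in the labels. The deviations of same-numbered libraries from their group means correlated at -0.252, -0.148 and -0.105. With 3 libraries a group these values cannot decide it. With the number as a replicate block the fit of all groups gave 0 calls. The compared groups alone with that block gave 162 higher and 5 lower of 13784 genes tested. Those called higher included Bnip3, Klf15, H2-T23, H2-M3, Ifi27l2a, Lyz2, Vcam1, Rps3 and Ndufb8, and those called lower Fos and Gm9703. With the length and GC correction added, that fit gave 0 calls. Leaving out a library gave 0 to 307 genes higher and 0 to 21 lower, the upper ends without pMC library 1 in the compared groups alone. Log2 fold changes turned as follows. Cd274 was -0.018 with relative log expression factors, -0.016 with upper-quartile scaling, -0.0048 with no filter, -0.020 with DESeq2, -0.011 with the compared groups alone and -0.038 with the muscle score. The muscle score gave 0.14 for Col1a1 and 0.61 for Ckm. Ckm was 0.12 with the block in the compared groups alone and 0.050 with the length correction added. B2m was -0.093, -0.084 and -0.089 in the 3 length-corrected fits. With a library left out the ranges were -9.78 to 1.79 for Myh7, -3.83 to 0.81 for Tnnt1, -3.71 to 0.42 for Tnni1, -4.80 to 1.79 for Myod1, -3.58 to 0.65 for Pdk4, -1.44 to 1.71 for Ckm, -0.59 to 0.23 for Col1a1, -0.16 to 0.43 for Xist, -0.066 to 0.15 for B2m, -0.30 to 0.32 for Cd3e, -0.26 to 0.18 for Cd274, -0.22 to 0.46 for Foxp3, -0.040 to 0.18 for Tal1, -0.25 to 0.043 for Ifng, -0.49 to 0.19 for Cd79a, -0.26 to 0.077 for Ccr2 and -0.17 to 0.82 for Gdf15. The cause was not tested. Where a library was left out, the group of 2 was assumed to vary like the others. Precision is limited by 3 libraries a group and by totals of 14.35 to 22.92 in units of 1000000 counts.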
